A study of Homo sapiens with 12 samples.

Results

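Peak intervals from N6-methyladenosine (m6A) profiling were examined along the transcripts of 5 large chromatin regulators, KMT2D, KMT2A, ARID1A, EP300 and CREBBP, in H460 cells. The genes were chosen by name, and the intervals counted for them are those that overlap the gene's span by at least 1 bp on the gene's strand. The spans, in build hg19, are chr12:49412758-49449107 on the minus strand for KMT2D, chr11:118307205-118397539 on the plus strand for KMT2A, chr1:27022522-27108601 on the plus strand for ARID1A, chr22:41488614-41576081 on the plus strand for EP300 and chr16:3775055-3930121 on the minus strand for CREBBP. Of 53502 intervals in 6 peak lists, 115 (0.215%) met this rule. Joined over lists wherever they shared a base, they formed 34 of 20742 regions.

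H460 is an established line of human large cell lung cancer, wild-type per the labels. The series holds 12 libraries in 4 groups of 3, which are input and antibody-enriched (IP) libraries of untreated cells and of cells given 100 nM rapamycin, an mTORC1 inhibitor used to induce autophagy, for 24 h. The question behind the design is which transcripts differ in m6A once autophagy is induced. The labels name no separate cultures for the replicates.

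The 6 lists are called A to F. The record ties A, C and E to the inputs of untreated replicates 1, 2 and 3, and B, D and F to the matching IPs. The names under which they were deposited disagree with this, since con stands in the names of the first 3 and rapamycin in the names of the last 3. No list was therefore placed in an arm, rapamycin was not compared with untreated cells, and no test was run over lists. Every value below is a single value of a list, without replicates, and the read depth behind the lists is unknown. Lists A, B and C hold 12040 to 14908 intervals and lists D, E and F 4530 to 4899, so counts were also made with each list limited to its 4530 best-scored intervals, the length of the shortest list. These are called equal-length counts below. Peak lists hold no expression values, so the cell type was not checked against marker genes.

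In mRNA, m6A is laid down co-transcriptionally by the METTL3-METTL14 complex, and it concentrates in long internal exons and in the last exon around the stop codon. Reader proteins that bind it alter splicing, translation and decay of the transcript. The 5 genes encode very large nuclear proteins with long coding sequences. KMT2D and KMT2A are histone methyltransferases that act on lysine 4 of histone H3, KMT2D mainly at enhancers and KMT2A mainly at promoters such as those of the HOX genes. ARID1A is the large DNA-binding subunit of the BAF (SWI/SNF) nucleosome remodelling complex. EP300 and CREBBP are paralogous acetyltransferases that act as transcriptional co-activators.

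Intervals were found in 29 of the 30 combinations of gene and list. KMT2A in list E was the exception. The 5 genes together held 28, 25, 22, 16, 11 and 13 intervals in lists A to F, in that order. Set against list length, this came to 2.33, 1.68, 1.79, 3.31, 2.43 and 2.65 intervals per 1000. At equal length the counts were 16, 15, 16, 16, 11 and 12, so that D held as many as A and C and more than B, and the higher counts of the full lists A, B and C over D did not remain. Over the full lists, the highest share of a list was in D and the lowest in B. No interval lay on the opposite strand within any of the 5 spans (0 in the 6 lists), and over the whole series 0.309% of regions were overlapped by one on the other strand. In RefSeq's GRCh38 annotation no other protein-coding gene shares a strand with these genes within their bounds. DDN-AS1, RNU6-375P and DPPA3P6 lie over KMT2D, EP300 and CREBBP on a strand that the table does not give.

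**Figure D1:**
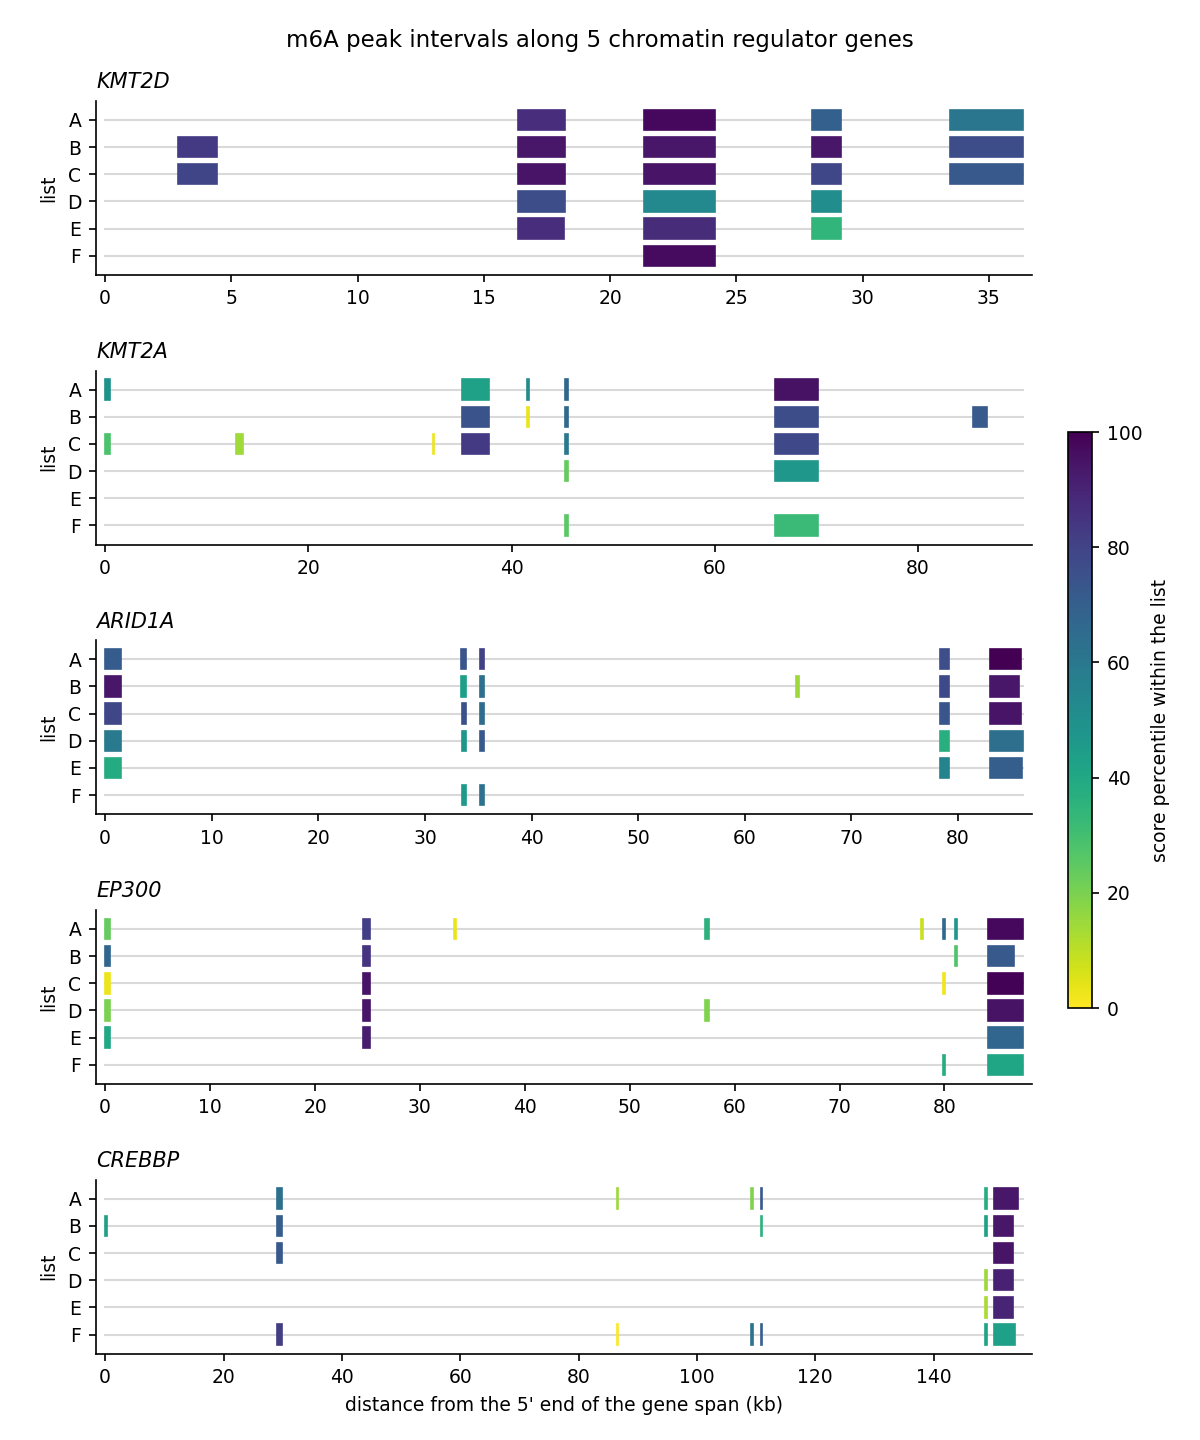
Position of each interval in lists A to F along the 5 genes, in kb from the 5' end of the gene's span, one panel per gene with its own scale. Colour gives the percentile of the interval's score within its list, and the narrowest intervals are drawn slightly wider than scale. KMT2D carries wide blocks spread over its span, whereas EP300 and CREBBP carry their widest block at the 3' end in all 6 lists.

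The genes differed in how much of them was covered and where. KMT2D, the shortest at 36.4 kb, had the largest covered share in every list, from 7.68% of its span in F to 28.2% in B and C. Coverage of KMT2A ran from 0% in E to 9.85% in B. For ARID1A the lowest share was 0.997%, in F, and the highest 7.37%, in D. EP300 was covered over 3.97% (F) to 6.33% (A) of its span. CREBBP, the longest at 155 kb, had the narrowest range, from 2.19% in D and E to 3.75% in A. These spans include introns, so the shares compare lists within a gene better than genes with one another.

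The share of covered bases that fell in the last 10% of the span separated the genes. It was 65.6% to 100% in EP300 and 70.6% to 100% in CREBBP over the 6 lists. In ARID1A it was 58.3% to 71.9% in lists A to E and 0% in F. In KMT2D it was 28.3% to 33.3% in A, B and C and 0% in D, E and F. In KMT2A it was 15.5% in B and 0% in the other lists with an interval. EP300 and CREBBP were thus covered mainly in the last 10% of their spans in every list, as was ARID1A in A to E. KMT2D and KMT2A were covered mainly further upstream in every list that held an interval. The spans include introns and run from 36.4 kb in KMT2D to 155 kb in CREBBP. Their last 10% is therefore not the same length of sequence in each gene.

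KMT2D carried 5 regions, all between 1141 and 2898 bp wide. The region at chr12:49424958-49427747, 58.8% to 66.4% of the way along the gene from its 5' end, was held by all 6 lists with the same ends in each. It scored 3100 in A, B and C, 1700.3 in F, 790.1 in E and 206 in D. Scores of different lists cannot be set on one scale, so each was ranked among all intervals of its own list, and the resulting percentile was 98.0, 93.9, 94.8, 53.1, 87.7 and 97.1 in lists A to F, in that order. The region therefore stood at the 87.7th percentile or higher in every list except D. It was the sole KMT2D interval of list F. Many intervals share a score of 3100, and those take a common rank, which is 98.0 in A, 93.9 in B and 94.8 in C. Percentiles from lists of 4530 to 14908 intervals are not a common scale either. Differences in percentile between lists are described below and were not tested.

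The next KMT2D region upstream, chr12:49430908-49432772, was held by A to E at percentiles of 87.2, 93.9, 94.8, 76.9 and 87.3. In list D it was the top-scoring KMT2D interval, at 455, while the central region stood at 206. The region at chr12:49419965-49421105 was held by the same 5 lists, with percentiles of 69.8, 93.9, 78.7, 50.8 and 34.6 in A to E. The most 3' region, chr12:49412758-49415655, which is also the widest of this gene at 2898 bp, was held by A, B and C at percentiles of 60.8, 76.8 and 72.4. The most 5' region, chr12:49444669-49446207, was held by B and C at 83.4 and 79.3. KMT2D therefore had its highest ranks in the middle of the gene, and the regions nearest to its ends were in none of D, E and F. At equal length B and C held 5 KMT2D intervals each, A, D and E held 3 each, and F held 1.

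KMT2A carried 8 regions, and none was held by all lists because list E held none of them. The widest region of the 5 genes, chr11:118373113-118377361 at 4249 bp, lay 73.0% to 77.7% along KMT2A and was held by A, B, C, D and F with identical ends. Its percentile was 95.5, 76.8 and 78.3 in A, B and C, 47.2 in D and 32.2 in F. It was the top-scoring KMT2A interval in A, B, D and F. In C the top place went to chr11:118342377-118345030, 2654 bp wide, at a score of 1871 against 1332. That second wide region was held by A, B and C at percentiles of 42.7, 74.4 and 83.5, and by none of D, E and F.

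A narrow KMT2A region of 378 bp at chr11:118352430-118352807, which began 50.1% of the way along the gene, recurred in the same 5 lists as the widest one. Its percentile was 67.0, 66.7 and 59.8 in A, B and C, 23.7 in D and 25.4 in F. In both of these recurrent KMT2A regions the percentiles of D and F lay below those of A, B and C. The most 5' region, chr11:118307205-118307659 at the start of the span, was held by A and C at percentiles of 49.5 and 28.4. The most 3' region, chr11:118392612-118393989, was held by B at 71.5. The remaining 3 KMT2A regions, 70 to 650 bp wide, were held by C alone or by A and B, at percentiles of 2.86 to 51.8. The full lists A to F held 5, 5, 6, 2, 0 and 2 KMT2A intervals, in that order. At equal length they held 2, 3, 2, 2, 0 and 2.

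ARID1A carried 6 regions, and 5 of them were held by 5 lists each. The lists that lacked them differed by region. List E lacked the neighbouring regions chr1:27055945-27056354 and chr1:27057643-27058095, and list F lacked the other 3 recurrent regions, so that F held precisely those that E did not. In the first of these neighbours the percentile was 73.9, 44.2 and 75.2 in A, B and C, 47.3 in D and 46.3 in F. In the second it was 80.8, 64.1 and 65.2 in A, B and C, 72.3 in D and 63.0 in F. The second was the top-scoring ARID1A interval in D and in F.

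At the 3' end of ARID1A, chr1:27105514-27108601 (3088 bp) had the highest median percentile of the gene, 93.9 over the lists that held it. It stood at 99.8, 93.9, 94.8, 63.8 and 70.6 in A to E. The most 5' region, chr1:27022522-27024031, began at the first base of the span and was 1510 bp wide, with percentiles of 71.3, 93.9, 78.9, 59.1 and 38.8 in A to E. The region at chr1:27100820-27101711 (892 bp) stood at 76.5, 77.9, 74.1, 36.9 and 55.2 in the same lists. The sixth region, 241 bp wide, was held by B at 14.5. Among the ARID1A regions that list E held, E ranked the first-base region lowest and the 3' region highest.

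**Figure D2:**
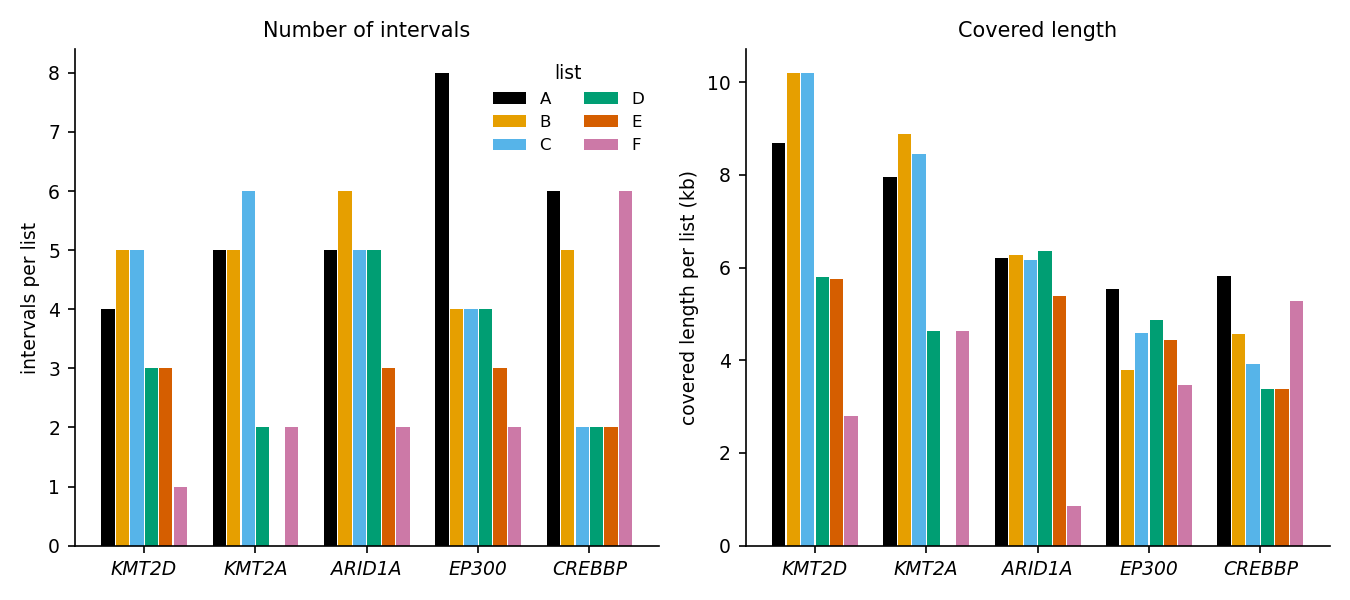
Number of intervals (left) and covered length in kb (right) of each gene in lists A to F, each bar being the single value of a list. KMT2A has no bar for list E, and CREBBP has 6 intervals in both A and F against 2 in C, D and E.

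EP300 carried 8 regions. The 3' region, chr22:41572777-41576081 (3305 bp), was held by all 6 lists. Its percentile was 98.0, 72.5, 99.6, 95.2, 66.8 and 40.8 in lists A to F, in that order. The highest median percentile of the gene over the lists holding a region, 91.8, belonged instead to a region of 635 bp. It lay at chr22:41513191-41513825, 28.1% to 28.8% along the span. This region was held by A to E with identical ends, at percentiles of 81.7, 85.0, 94.8, 94.7 and 91.8, and it was the top-scoring EP300 interval in B and E. Its range of 81.7 to 94.8 was the narrowest among the 15 regions held by 5 or 6 lists, each taken over the lists that held it. This depends on F, since over A to E the 3' region of CREBBP ran from 90.2 to 94.8. List F held no interval in the 635 bp region. The median of 91.8 is therefore over A to E, whereas that of the 3' region, 83.9, includes F at 40.8. In A, C and D the 3' region ranked above the 635 bp region, and in B and E below it.

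The most 5' region of EP300, chr22:41488614-41489102, again began at the first base of the span and was held by A to E, at a lower rank in each of them than the other recurrent EP300 regions. Its percentile was 23.7, 67.5, 2.79, 19.6 and 40.1 in A to E. Its score was 820.5 in B, and in C, at 76.45, it lay near the bottom of the list. The other 5 EP300 regions were 162 to 438 bp wide and were held by 1 to 3 lists. List A held all of them, which gives it 8 EP300 intervals against 2 to 4 in the other lists. At equal length A held 3 and D held 4.

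CREBBP carried 7 regions. As in its paralogue, the widest lay at the 3' end and was held by all 6 lists. This was chr16:3775890-3779875, 3986 bp when joined, with percentiles of 94.0, 93.9, 94.8, 90.7, 90.2 and 43.6 in lists A to F, in that order. It was the top-scoring CREBBP interval in A to E. In list F the top place was taken by chr16:3900298-3901010, a region of 713 bp at 18.8% to 19.2% of the span, whose percentile was 63.6 in A, 70.5 in B, 72.5 in C and 82.4 in F. In both paralogues, then, a region of 635 or 713 bp in the 5' part of the span recurred, but in EP300 it was in A to E and absent from F, whereas in CREBBP it was in A, B, C and F and absent from D and E.

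A CREBBP region of 282 bp next to the 3' region, chr16:3781193-3781474, was held by every list but C, at percentiles of 37.5, 43.0 and 41.9 in A, B and F and of 14.5 and 13.1 in D and E. The most 5' region, chr16:3929833-3930121, ended at the last base of the span, which is the first base of this minus-strand gene, and was held by B at 43.9. The remaining 3 regions, 180 to 417 bp wide and between 55.8% and 71.5% of the span, were held by A and F together, and 1 of them also by B. List F thus held 6 CREBBP intervals, as many as list A, although it is the shorter list and held 1 or 2 intervals in each of the other genes. CREBBP was also the gene in which C, a long list, held as few intervals as D and E, namely 2. At equal length F held 5 CREBBP intervals, A held 3, and the other lists held 2 each.

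**Figure D3:**
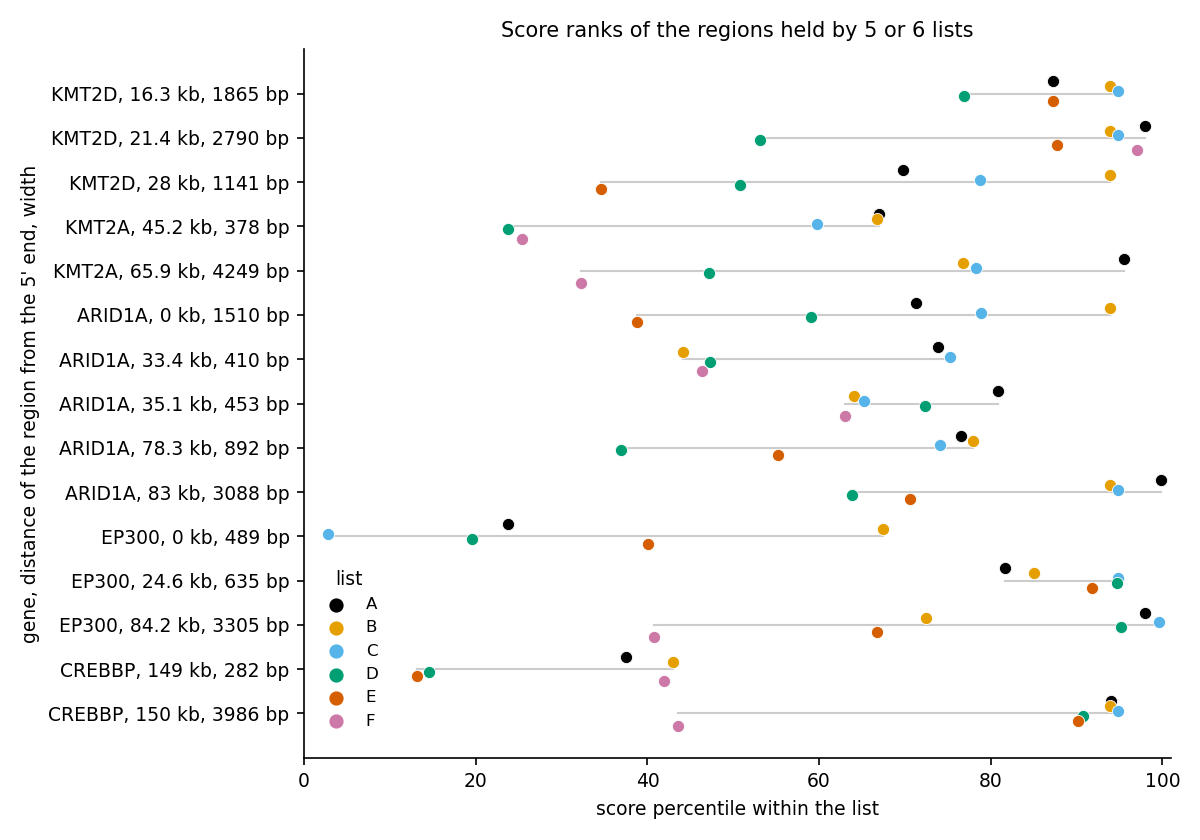
Score percentile within each list for the 15 regions held by 5 or 6 lists, labelled by gene, distance of the region from the 5' end of the span and joined width. Points are single lists, offset vertically for legibility, and lines join the lowest and highest. The 635 bp region of EP300, which has no point for F, has the narrowest range, 81.7 to 94.8. List F lies lowest in the 3' regions of EP300 and CREBBP, and without F the CREBBP region runs from 90.2 to 94.8.

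Of the 34 regions, 3 (8.82%) were held by all 6 lists, against 8.3% of all regions of the series, so full recurrence was at the background level. These 3 were the central KMT2D region and the 3' regions of EP300 and CREBBP. A further 12 were held by 5 lists, so that 15 of 34 (44.1%) were in 5 or 6 lists, against 16.2% of all regions. With list F left out, 10 of the 34 regions were held by all remaining lists (29.4%, against 11.6% of all regions in those lists), and with list E left out, 7 were (20.6%, against 10.6%). At the other end, 7 of 34 (20.6%) were in 1 list, against 36.9% of all regions.

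Wide regions recur more often throughout the series, and the 5 genes held more of them. The width is that of the joined region, which can only grow as lists are added. Its link with recurrence is therefore partly built in. At least 1000 bp was reached by 12 of the 34 regions (35.3%) and by 25.7% of all regions. Among regions of at least 1000 bp, 8 of 12 were in 5 or 6 lists, against 31.6% in the series, and 3 of 12 were in all 6, against 16.1%. Among regions of at least 2500 bp, 3 of 7 were in all 6 lists, against 25.5%. Below 1000 bp, 7 of 22 were in 5 or 6 lists (31.8%), against 10.9%. The counts are small, regions of 1 gene share a transcript, and the genes were picked with these data known, so no test was made of these shares.

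By list, 17 of the 34 regions (50%) were held by A, B and C together, against 34.9% of all regions, and 4 (11.8%) by D, E and F together, against 9.68%. The 4 are the 3 regions of all lists and the 282 bp region of CREBBP. There were 13 regions held by none of D, E and F (38.2%, against 61.6% of all regions), of which 6 were in KMT2A, 3 in EP300, 2 in KMT2D and 1 each in ARID1A and CREBBP. None of the 34 was absent from all of A, B and C (0 of 34), and this was rare in the series too, at 4.81% of all regions. At equal length the genes held 24 regions. Of these, 4 were in none of D, E and F (16.7%, against 22.6% of all regions) and 4 in none of A, B and C (16.7%, against 29.3%), so the lack of regions outside A, B and C did not remain. At equal length 10 of the 24 regions were in 5 or 6 lists (41.7%, against 21.6%).

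Scores at or above 3100 were reached by 3 of 28 intervals in A, 6 of 25 in B and 6 of 22 in C. In the whole lists these scores made up 3.74%, 11.8% and 10.0%. None of the 40 intervals in D, E and F reached that value, which was held by 1.47%, 1.57% and 1.1% of those lists. The median percentile of the intervals in these genes was 66.7, 72.5, 76.7, 52.0, 66.8 and 43.6 in lists A to F, in that order, where 50 is the middle of a list. The lower percentiles of D and F were thus not shared by E, which held the fewest intervals and none in KMT2A.

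Interval ends were mostly the same in every list. Of the 27 regions held by at least 2 lists, 21 (77.8%) had the same 2 ends in each, against 57.4% of all such regions, and each list that held a region had it as 1 interval. The 5' end was the same in 25 of 27 regions, against 84.6% of all regions with 1 interval per list, and the 3' end in 23 of 27, against 68.5%. The 5' ends that varied did so by 7 bp in KMT2A and 5 bp in ARID1A.

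The 3' ends that varied were in the 3' regions of ARID1A, EP300 and CREBBP and, by 44 bp, in the KMT2D region at chr12:49430908-49432772. In ARID1A the last base was 27108451, 27108282, 27108408, 27108601 and 27108494 in A to E, a different position in each of the 5 lists over 319 bp. The end in D is the last base of the ARID1A span. In EP300 the 3' region ended at 41576081, the last base of that gene's span, in 5 lists. In B it ended 814 bp earlier, at 41575267. In the minus-strand gene CREBBP the 3' end, which is the lowest coordinate, was 3776767 in B, 3776765 in D and 3776764 in E, and lay further downstream at 3776670 in C, 3776427 in F and 3775890 in A. Among the lists that held them, B thus had the shortest interval in each of these 3' regions, while the longest was in D for ARID1A and in A for CREBBP.

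**Figure D4:**
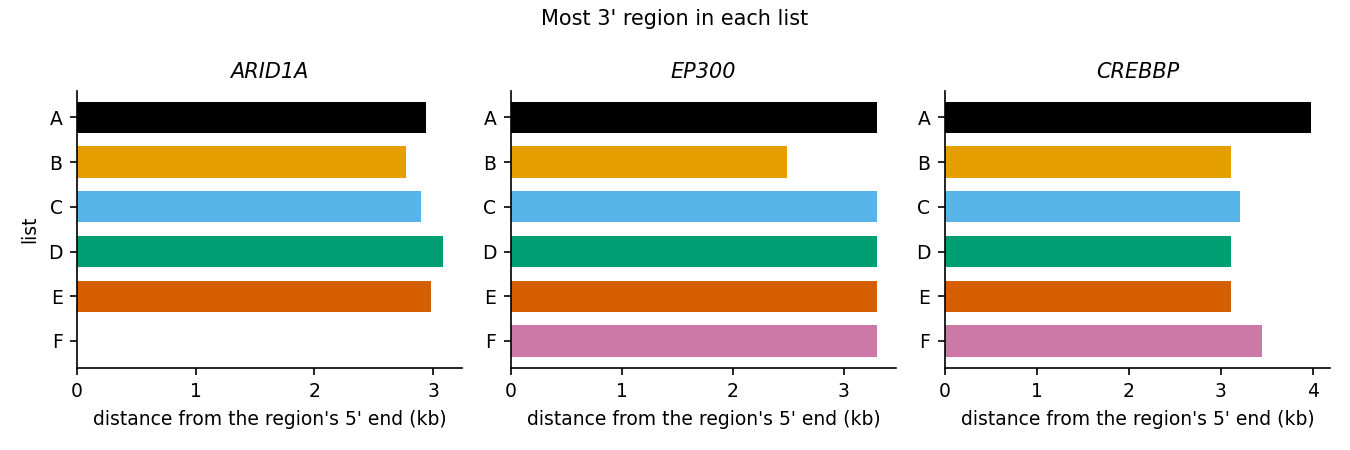
Extent of the most 3' region of ARID1A, EP300 and CREBBP in lists A to F, in kb from the region's 5' end. All bars of a gene start at the same base, and their lengths differ by up to 319 bp in ARID1A, 814 bp in EP300 and 877 bp in CREBBP; list F has no interval in the ARID1A region.

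Exon, coding sequence and UTR boundaries in hg19 were not used here, so it was not checked whether these shared ends are exon boundaries. Some shared ends are an edge of the gene's span, such as 49412758 in KMT2D and 41576081 in EP300. Sequence under the intervals, including m6A consensus motifs, was likewise not analysed here.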

How the data were processed

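The data are 6 deposited peak lists giving each peak's position, strand, name and score. HISAT2 2.0.4 and the build hg19 are named in the submitters' processing notes. Peak names have the form that MACS gives, per the file contents. The score is the authors' deposited value per peak; the sources used here do not give its scale, the caller's settings or the libraries behind a list. Starts were converted to 1-based positions. Intervals of all lists sharing at least 1 bp on a strand were joined into regions. A percentile is the mid-rank of a score among all intervals of its own list, ties sharing their mean rank. The members and lists were chosen with earlier results of these data known.

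All 5 genes are named. Regions given by position are those held by all lists, the widest, the highest by median percentile and the most 5' and 3' of each gene; others given by position were chosen after their values were seen. Planned counts for other chromatin regulators were not made, since no hg19 annotation was used. Alternatives were 2 score minimums, equal list lengths, a stricter overlap with the span (at least 50% of the interval), a joining gap, no strand, and each list left out. Work was done in Python 3.11.15 with numpy 2.4.6, scipy 1.17.1, pandas 2.3.3 and matplotlib 3.10.9. The code was checked on lists with known answers and against bedtools 2.31.1, and 13 of 13 checks passed.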

Additional observations from a re-analysis of the deposited data

How the results depend on the processing

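The number of regions in the 5 genes (34), the number held by all lists (3) and the joined length (38542 bp) were recomputed under 6 other settings and with each list left out. The first ranged from 23 to 34 and the last from 35289 to 38542 bp, always within 1.5 times the reported value. The number held by all lists was 0 when the median score over all lists, 260.435, was set as the minimum. This applies a single raw score to lists whose scores are not on a common scale. The median score of the intervals in these genes was below it in D (200.9) and F (145.2), and 292.9 to 1232 in the other lists. The number held by all lists was 3 with scores of 100 or more, with each list limited to its 4530 best-scored intervals, and with at least 50% of the interval required inside the span. With gaps of up to 100 bp joined, or with strand ignored, the number was also 3. With 1 list left out it ran from 3 to 10, reaching 7 without E and 10 without F, since fewer lists have to share a region. Of the 12 per-list counts and lengths, 6 moved by more than 1.5 times with that minimum, which left 3 to 21 intervals per list, and 2 moved with equal list lengths, where A and B fell to 16 and 15 intervals. Lists C and D then held 16 each, so A, B and C no longer held more than D. Covered length in A then fell to 25610 bp, against 25031 bp in D. In B and C it remained higher, at 30633 and 31152 bp, and in E and F it was 18958 and 16786 bp. Lists E and F, with 11 and 12 intervals, still held fewer than A, B and C. Per-gene counts and recurrence shares at equal length were added after the data were seen. The other 3 settings moved none of the 12 per-list values. No paired analysis was possible because nothing was tested and each list stands in no arm. Without read depth no counting error can be given for any interval.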

Other observations

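Peak names carry a number that runs along the chromosomes. If each number stood for 1 call, the numbers from the first to the last interval of a gene would count the calls made there. Below, kept means that a number of this range is in the list. The first and last numbers of a range are in the list by construction. The share kept over whole lists is not given here, so the counts below are not read as a trait of a gene. KMT2D kept 4 of 5 in A, 5 of 7 in B and in C, and 3 of 3 in D and in E. In F it had 1 interval and so no range. ARID1A kept 5 of 9 in A, 6 of 11 in B and 5 of 8 in C, and 5 of 21 in D, 3 of 23 in E and 2 of 2 in F. KMT2A kept 5 of 11 in A, 5 of 10 in B, 6 of 9 in C, 2 of 5 in D and 2 of 8 in F. CREBBP kept 6 of 17 in A, 5 of 18 in B, 2 of 9 in C, 2 of 2 in D and in E, and 6 of 39 in F. EP300 kept 8 of 15 in A, 4 of 14 in B, 4 of 11 in C, 4 of 13 in D, 3 of 18 in E and 2 of 3 in F. For the numbers that are not in the lists, position, strand and score are not known, and the files do not say why they are absent.

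The nearest interval outside a span on the same strand lay 4.29 kb beyond the 5' edge of KMT2D, at chr12:49453396-49453557, and was held by A, B, C and E. Whether it belongs to KMT2D was not determined, and it is not counted above. Beyond the 3' edges, the nearest intervals were 7.5 kb from CREBBP (list A) and 12.4 kb from ARID1A (list B). At the other 7 edges the nearest same-strand interval was at least 20.3 kb away.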
